A study of Mus musculus with 14 samples.

Results

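The genes described here are the matrix metalloproteinases (MMP, 23 genes), the ADAMTS proteases (19 genes) and the tissue inhibitors of metalloproteinases (TIMP, 4 genes). They were taken by gene symbol from both deposited count tables, and make up 46 of the 55291 symbols. MMPs and ADAMTS proteases are zinc-dependent enzymes that are made as inactive proenzymes and cut the proteins of the extracellular matrix. MMPs cleave collagens, laminin and fibronectin, and some release growth factors and cytokines held in the matrix. ADAMTS proteases carry thrombospondin repeats and cut proteoglycans, procollagens or microfibril proteins, according to their subgroup. TIMPs bind the active site of these enzymes and block it. In a solid tumour most of these transcripts are known from fibroblasts, tumour cells and macrophages, and activated T cells are known for a smaller set, Mmp9 among them.

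Messenger RNA was sequenced in 14 mouse libraries. The tumour group holds CD8+ T cells sorted from MCA205 tumours, a fibrosarcoma line grown under the skin of C57BL/6 mice for 14 days (n = 3), and the spleen group holds CD8+ T cells from spleens of these mice (n = 3). The ND-646 group holds OT-1 splenocytes cultured for 7 days with 100 nM of ND-646, which blocks acetyl-CoA carboxylase (n = 4), and the vehicle group holds such cultures with DMSO (n = 4). Both kinds of culture were started from unsorted splenocytes with 1 µg/mL of an ovalbumin peptide, which the T cell receptor of OT-1 mice recognises, and 200 U/mL interleukin-2. All samples carry the genotype label WT, and no age is given. The tumour samples are called pooled without a statement of what was pooled, and tumours were dissociated with a kit. Whether the replicates of a group are separate animals or separate dishes is not stated, and the p-values therefore describe library-to-library spread that may be purely technical.

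Library totals ran between 19.6 and 21.0 M counts in tumour and spleen libraries and between 23.5 and 33.8 M in the cultures. Levels are given as CPM, counts per 1000000 counts of the scaled library, and a value after ± is the SD over the libraries of a group (n = 3 or n = 4) unless marked SE. A count of 3, the most that a count of 0 allows, is worth 0.143 to 0.154 CPM in tumour and spleen libraries and 0.0878 to 0.129 CPM in the cultures, for counting error only. Transcripts of 17 CD8 T cell markers summed to 4545 to 6066 CPM in tumour and 9755 to 9835 CPM in spleen libraries, with Cd8a at 963 CPM in tumour and 1550 CPM in spleen libraries. A list of 26 fibroblast and fibrosarcoma genes summed to 18020, 24150 and 22050 CPM in tumour libraries 1, 2 and 3, and to 1496 to 1530 CPM in spleen libraries. Without Vim, S100a4 and Thy1, which T cells also express and which were left out after the values were seen, the sums were 13330, 19300 and 17040 CPM in tumour libraries, against 23.1, 7.59 and 5.74 CPM in spleen libraries. So the sorted tumour samples held abundant RNA of fibroblast genes beside that of T cells. In bulk samples such as these, fewer cells of a type and less RNA per cell cannot be told apart.

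A gene had enough counts for a test when it passed edgeR's filter on low counts, which asks for about 10 counts in at least as many libraries as the smaller group holds. In the table of tumour and spleen libraries 30 of the 46 genes passed, and in the table of cultures 14 passed. All 14 of the culture genes also passed in the other table, 16 genes passed only there, and 16 passed in neither. Of the 16 genes that failed among tumour and spleen libraries, 4 were at 0 in every library (Mmp1a, Mmp1b, Mmp7 and Mmp20), and the other 12 had at most 8 counts in a library. That maximum belonged to Mmp24, a membrane-type MMP, and Mmp12, the macrophage elastase, reached 5 counts. Of the 32 genes that failed in the cultures, 15 were at 0 in all 8 libraries and 17 had at most 12 counts in a library, a value reached by Adamts3.

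The first comparison set CD8+ T cells from tumours against those from spleen. Of the 30 genes tested, 25 were higher in tumour, 3 were lower (Adamts10, Adamts17 and Mmp15), and 2 did not pass the test (Adamts6 and Mmp17). Across all 15042 genes tested, 83.8% were called, 43.6% as higher and 40.2% as lower. The test was edgeR's quasi-likelihood test with Benjamini-Hochberg adjustment, called at an adjusted p under 0.05. By family, 12 MMPs, 10 ADAMTS proteases and 3 TIMPs were higher. Of the 25 genes called higher, 20 lay under the filter's level of 0.496 CPM in every spleen library. These 20 entered the test through the tumour libraries alone and had to differ, so the count carries no support of its own. For 28 of the 30 genes the tumour and spleen values did not overlap, and 86.2% of all genes tested had this property. The median log2 fold change was 5.68 over the 30 genes and 0.03 over all genes tested, and 5.22 over the 30 with the 4 genes at 0 in spleen set to their lower bound. The same 20 genes raise both medians of the 30 by the way they passed the filter, so the contrast with all genes carries no support either.

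**Figure D1:**
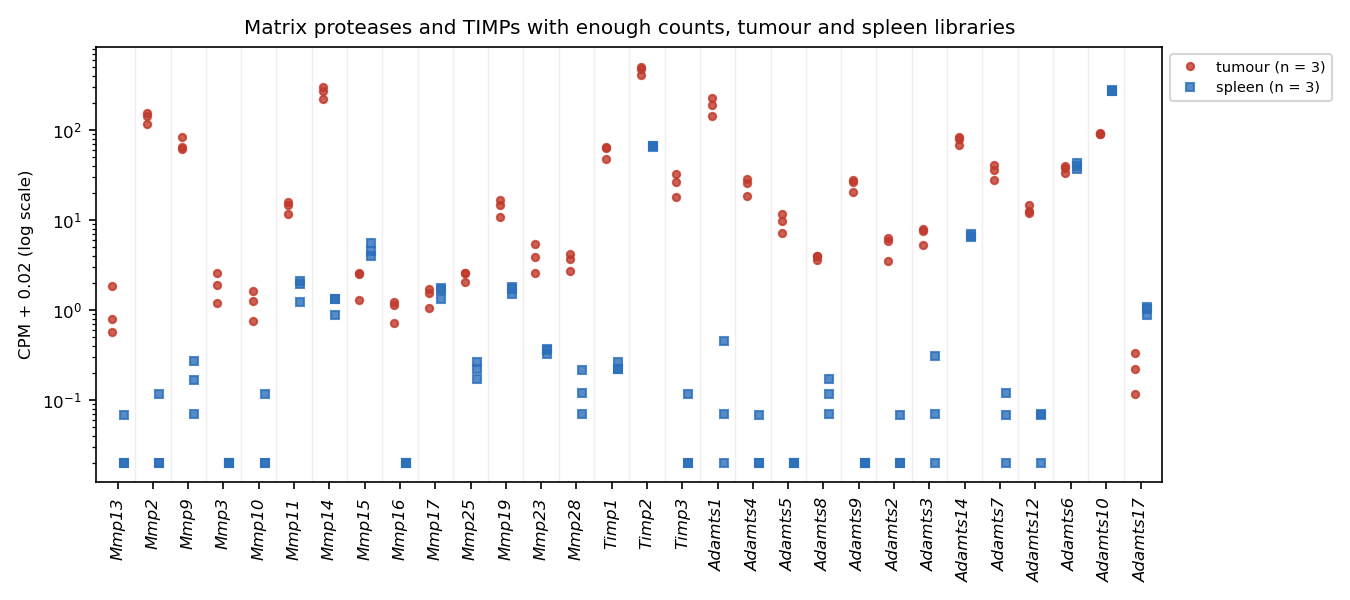
Level of each of the 30 tested genes in the 3 tumour libraries (circles) and 3 spleen libraries (squares), as CPM plus an offset of 0.02 on a log scale, so that points on the lowest line are libraries at 0. Tumour points stand above spleen points for 25 genes, and below them for Mmp15, Adamts10 and Adamts17.

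For the gelatinases Mmp2 and Mmp9 and for Mmp14, which activates MMP2, tumour values were over 60 CPM and spleen values were near or below 1 CPM. Mmp14, also known as MT1-MMP, is anchored in the cell membrane, cuts fibrillar collagen and activates the proenzyme of MMP2. It stood at 222, 299 and 273 CPM in the tumour libraries, against 1.30, 0.849 and 1.30 CPM in the spleen libraries (log2 fold change 7.84 ± 0.18 SE, adjusted p = 3.15e-09). Mmp2, gelatinase A, which degrades type IV collagen, stood at 117, 155 and 143 CPM in the tumour libraries, against 0.0964, 0 and 0 CPM in the spleen libraries. Both spleen counts of Mmp2 came from replicate 1, and the count ratio was 4204 with a 95% counting interval of 1163 to 34719 (adjusted p = 4.37e-09). Mmp9, gelatinase B, stood at 62.2, 84.6 and 65.2 CPM in the tumour libraries, against 0.145, 0.250 and 0.0499 CPM in the spleen libraries (log2 fold change 8.84 ± 0.26 SE, adjusted p = 7.86e-09). The tumour and spleen values of these 3 genes did not overlap. Mmp2 and Mmp9 passed the filter through the tumour libraries alone, so their direction was fixed beforehand. Tumour library 1 was the lowest tumour library for each of the 3 genes. It was the lowest for 24 of the 25 genes called higher in tumour, and it also had the lowest sum of fibroblast genes given above; their part in these results was not tested. The fitted log2 fold change of Mmp2 was 11.79 with all libraries and 14.46 without spleen replicate 1, and a fit to a group this close to 0 depends on the prior count.

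In mouse, 10 MMP genes lie side by side on chromosome 9, in the order Mmp13, Mmp12, Mmp1b, Mmp3, Mmp1a, Mmp10, Mmp8, Mmp27, Mmp20 and Mmp7, with no other protein-coding gene between them in the RefSeq table. They include the collagenases and stromelysins, and they are shown by promoter because most of the promoters share a layout that Mmp14, the MMP with the highest level in tumour, lacks. The motifs searched were TGANTCA, the core bound by AP-1 proteins, which is its own reverse complement, and TATAAA on either strand, in the 250 bases before the start. The sequences below are the 100 bases before the RefSeq transcription start on the plus strand of GRCm38.p6, with matches in capitals.
Mmp13, chr9:7272414-7272513: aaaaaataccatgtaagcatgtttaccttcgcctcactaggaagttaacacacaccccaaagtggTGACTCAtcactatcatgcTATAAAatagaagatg
Mmp3, chr9:7445722-7445821: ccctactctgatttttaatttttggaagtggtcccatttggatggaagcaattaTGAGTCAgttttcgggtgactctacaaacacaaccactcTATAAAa
Mmp1a, chr9:7464041-7464140: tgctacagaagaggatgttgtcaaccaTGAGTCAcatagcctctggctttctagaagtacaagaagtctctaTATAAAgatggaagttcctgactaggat
Mmp10, chr9:7502242-7502341: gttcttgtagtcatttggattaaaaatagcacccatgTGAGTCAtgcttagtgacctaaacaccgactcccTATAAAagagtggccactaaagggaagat
Mmp14, chr14:54431498-54431597: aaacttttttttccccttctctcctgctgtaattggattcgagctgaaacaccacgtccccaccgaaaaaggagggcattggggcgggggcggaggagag
TGANTCA was present in 8 of these 10 genes and in 0 of the 22 other protease and TIMP genes with a RefSeq window, and 14 of the 46 genes had no window. The match in Mmp20 was TGAATCA, outside the AP-1 core, and the other matches were TGACTCA or TGAGTCA. Among all 32851 windows 6.75% held TGANTCA and 12.4% held TATAAA. The pair, TGANTCA with TATAAA after it within 60 bases, was found in 7 of the 12 windows of the cluster (58.3%) and in 0.174% of all windows. A match describes the letters only and is not evidence that a factor binds there.

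Few reads came from the chromosome 9 cluster. Of its 10 genes, 3 had enough counts in the tumour and spleen table (Mmp3, Mmp10 and Mmp13) and 0 had enough in the cultures. Mmp3, stromelysin-1, which cuts many matrix proteins and activates other MMPs, stood at 1.19, 1.90 and 2.53 CPM in the tumour libraries and at 0 in every spleen library, and was at least 38.0-fold higher in tumour (adjusted p = 6.24e-05). Mmp10, stromelysin-2, stood at 0.741, 1.23 and 1.63 CPM in the tumour libraries, against 0.0964, 0 and 0 CPM in the spleen libraries, a ratio of 36.6 with a counting interval of 9.78 to 308 (adjusted p = 0.000151). Mmp13, collagenase-3, stood at 0.544, 0.770 and 1.82 CPM in the tumour libraries, against 0.0482, 0 and 0 CPM in the spleen libraries, a ratio of 64.2 with a counting interval of 11.1 to 2574 (adjusted p = 0.000379). All 3 were above their spleen values in every tumour library and all stayed under 3 CPM. They too passed the filter through the tumour libraries alone, which fixed their direction beforehand. The 2 spleen counts of Mmp10 and the 1 of Mmp13 came from replicate 1, without which the fitted log2 fold changes were 7.62 and 7.42, against 4.95 and 5.54 with all libraries. For Mmp13, the value was 4.90 without tumour replicate 3. Mmp8, the neutrophil collagenase, had 0 counts in tumour and 2 in spleen libraries.

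The remaining MMPs spread over both directions. Mmp11, stromelysin-3, unlike the stromelysins of the cluster, leaves the cell already activated by furin-like proteases. It stood at 11.7, 14.7 and 15.9 CPM in the tumour libraries, against 2.07, 1.20 and 1.94 CPM in the spleen libraries (log2 fold change 3.02 ± 0.21 SE, adjusted p = 6.74e-07). Mmp19, which cuts basement membrane proteins, stood at 10.9, 16.6 and 14.8 CPM in the tumour libraries, against 1.78, 1.70 and 1.496 CPM in the spleen libraries (log2 fold change 3.08 ± 0.20 SE, adjusted p = 4.18e-07). Both were well above their spleen values in every tumour library, and both had measurable spleen levels. Mmp23 and Mmp28 passed the filter through the tumour libraries alone, so their direction was fixed beforehand. Mmp23, which is anchored through its N-terminus and lacks the usual cysteine switch, stood at 2.57, 5.44 and 3.82 CPM in the tumour libraries, against 0.337, 0.300 and 0.349 CPM in the spleen libraries (log2 fold change 3.56 ± 0.37 SE, adjusted p = 1.19e-05). Mmp28, epilysin, stood at 2.67, 4.16 and 3.68 CPM in the tumour libraries, against 0.193, 0.0499 and 0.0997 CPM in the spleen libraries (log2 fold change 4.85 ± 0.40 SE, adjusted p = 2.43e-06), and its log2 fold change was 5.46 without spleen replicate 1.

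Besides Mmp14, 4 membrane-type MMPs were tested, and they did not move together. Mmp16 and Mmp25 passed the filter through the tumour libraries alone, which fixed their direction beforehand. Their contrast with Mmp15 and Mmp17 therefore carries no support. Mmp16, MT3-MMP, stood at 0.692, 1.13 and 1.20 CPM in the tumour libraries and at 0 in every spleen library, and was at least 20.4-fold higher in tumour (adjusted p = 0.000110). Mmp25, MT6-MMP, held by a glycolipid anchor and known from leukocytes, stood at 2.57, 2.57 and 2.01 CPM in the tumour libraries, against 0.241, 0.200 and 0.150 CPM in the spleen libraries (log2 fold change 3.55 ± 0.32 SE, adjusted p = 4.47e-06). Mmp15, MT2-MMP, went the other way, and its values did not overlap either. It stood at 1.28, 2.46 and 2.53 CPM in the tumour libraries, against 3.95, 4.54 and 5.49 CPM in the spleen libraries (log2 fold change -1.15 ± 0.27 SE, adjusted p = 0.00268). Mmp17, MT4-MMP and also glycolipid-anchored, stood at 1.04, 1.54 and 1.67 CPM in the tumour libraries, against 1.74, 1.65 and 1.30 CPM in the spleen libraries. Its groups overlapped and it did not pass the test (log2 fold change -0.14 ± 0.27 SE, adjusted p = 0.644).

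All 3 TIMPs with enough counts were higher in tumour. Timp1 and Timp3 passed the filter through the tumour libraries alone, so their direction was fixed beforehand. Timp2, which inhibits MMPs and also bridges the proenzyme of MMP2 to MMP14 at the cell surface, had the highest level of all 46 genes in tumour per kilobase of exon. Timp2 stood at 406, 483 and 507 CPM in the tumour libraries, against 64.7, 66.9 and 66.1 CPM in the spleen libraries (log2 fold change 2.82 ± 0.08 SE, adjusted p = 4.79e-09). It was also the only TIMP with more than 1 CPM in spleen, and its spleen replicates lay close together. Timp1, a soluble inhibitor that is induced by cytokines in many cells, stood at 47.3, 65.1 and 63.5 CPM in the tumour libraries, against 0.241, 0.200 and 0.199 CPM in the spleen libraries (log2 fold change 8.06 ± 0.23 SE, adjusted p = 4.82e-09). Timp3, which binds to the matrix and also inhibits ADAM17 and the aggrecanases, stood at 18.0, 32.3 and 26.7 CPM in the tumour libraries, against 0.0964, 0 and 0 CPM in the spleen libraries, a ratio of 779 with a counting interval of 215 to 6436 (adjusted p = 2.86e-07). Its 2 spleen counts came from replicate 1, without which the fitted log2 fold change was 12.03, against 9.36. Timp4 had 3 counts in tumour and 0 in spleen libraries. Exons of Timp3 overlap those of Syn3 on the opposite strand over 21.3% of their bases, and whether counting used strand is not given; Syn3 stood at 2.79 CPM in tumour and 0.213 CPM in spleen libraries. Opposite-strand exons also overlap Mmp28 (12.03% of its bases), Adamts8 (10.6%) and Adamts9 (9.18%).

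The 5 tested ADAMTS proteases that cut the proteoglycans aggrecan and versican were all higher in tumour. All 5 lay under the filter's level in every spleen library and passed it through the tumour libraries alone, so their shared direction was fixed beforehand. Adamts1 stood at 142, 229 and 191 CPM in the tumour libraries, against 0.434, 0.0499 and 0 CPM in the spleen libraries (log2 fold change 10.10 ± 0.43 SE, adjusted p = 3.79e-07). Adamts9 stood at 20.7, 27.9 and 26.8 CPM in the tumour libraries and at 0 in every spleen library, and was at least 509-fold higher in tumour (adjusted p = 1.22e-07). Adamts4, aggrecanase-1, stood at 18.3, 28.7 and 26.1 CPM in the tumour libraries, against 0.0482, 0 and 0 CPM in the spleen libraries, a ratio of 1479 with a counting interval of 265 to 58471 (adjusted p = 3.65e-08). In spleen these 3 had 10, 0 and 1 counts in all. Adamts5, aggrecanase-2, stood at 7.17, 9.80 and 11.6 CPM in the tumour libraries and at 0 in every spleen library, and was at least 193-fold higher in tumour (adjusted p = 1.41e-06). Adamts8 stood at 3.56, 3.95 and 3.92 CPM in the tumour libraries, against 0.0964, 0.150 and 0.0499 CPM in the spleen libraries (log2 fold change 5.19 ± 0.33 SE, adjusted p = 3.99e-07). Without spleen replicate 1, which held 9 of the 10 spleen counts of Adamts1 and the 1 of Adamts4, the fitted log2 fold change of Adamts1 was 12.58, and that of Adamts4 was 11.95 against 10.07. Adamts15 and Adamts20, of the same subgroup, had 3 and 1 counts in tumour and 0 in spleen libraries.

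Of the 3 proteases that remove the N-terminal propeptide of procollagens, Adamts14 differed from the others by its level in spleen. It stood at 68.1, 80.0 and 83.0 CPM in the tumour libraries, against 6.46, 6.99 and 6.58 CPM in the spleen libraries (log2 fold change 3.53 ± 0.10 SE, adjusted p = 3.06e-09), so that every tumour library was above every spleen library. Adamts2 stood at 3.46, 6.36 and 5.88 CPM in the tumour libraries, against 0.0482, 0 and 0 CPM in the spleen libraries, a ratio of 318 with a counting interval of 56.7 to 12597 (adjusted p = 1.17e-06). Adamts3, which also processes the growth factor VEGF-C, stood at 5.24, 7.44 and 7.84 CPM in the tumour libraries, against 0.289, 0.0499 and 0 CPM in the spleen libraries (log2 fold change 5.82 ± 0.50 SE, adjusted p = 3.66e-06). Without spleen replicate 1 their fitted log2 fold changes were 9.73 against 7.86 for Adamts2, and 7.80 against 5.82 for Adamts3. Both proteases known to cleave cartilage oligomeric matrix protein, Adamts7 and Adamts12, were at or near 0 in spleen. Adamts2, Adamts3, Adamts7 and Adamts12 passed the filter through the tumour libraries alone, so their direction was fixed beforehand. Adamts7 stood at 28.1, 41.0 and 36.5 CPM in the tumour libraries, against 0.0482, 0 and 0.0997 CPM in the spleen libraries, a ratio of 712 with a counting interval of 243 to 3457 (adjusted p = 1.57e-08), with a fitted log2 fold change of 10.19 without spleen replicate 3 against 9.31. Adamts12 stood at 12.1, 14.5 and 12.7 CPM in the tumour libraries, against 0.0482, 0 and 0.0499 CPM in the spleen libraries, a ratio of 398 with a counting interval of 109.7 to 3289 (adjusted p = 1.49e-08).

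Adamts10 and Adamts6, which are tied to fibrillin microfibrils, had the highest protease levels in spleen per kilobase of exon. Adamts10, which binds fibrillin-1, stood at 92.0, 90.2 and 91.4 CPM in the tumour libraries, against 275, 276 and 276 CPM in the spleen libraries. Replicates of each group lay within 2 CPM of each other, and tumour was 3.02-fold lower (log2 fold change -1.60 ± 0.04 SE, adjusted p = 3.06e-09). Adamts6, its closest relative, stood at 38.0, 33.1 and 39.7 CPM in the tumour libraries, against 37.1, 39.8 and 42.6 CPM in the spleen libraries. Its groups overlapped, and it did not pass the test (log2 fold change -0.11 ± 0.08 SE, adjusted p = 0.244). Adamts17, in which mutations give a fibrillin-related eye and growth disorder in humans, averaged 0.200 ± 0.106 CPM in tumour and 0.970 ± 0.107 CPM in spleen libraries (log2 fold change -2.26 ± 0.41 SE, adjusted p = 0.000599).

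These directions depend in part on how the libraries are scaled, and CD8 T cell transcripts were a smaller share of tumour libraries. As an alternative, libraries were scaled by the CD8 T cell markers summed above, leaving out Thy1. The median log2 fold change of all genes then moved by 0.98. Of all calls 85.5% were higher with this CD8 marker scaling, against 52.0% with the usual scaling. Under the CD8 marker scaling 27 of the 30 genes were higher and 2 were lower. Adamts10 was still lower in tumour (log2 fold change -0.61, adjusted p = 0.000408), as was Adamts17 (-1.29, adjusted p = 0.0238). Mmp15 no longer passed the test (-0.15, adjusted p = 0.678), while Adamts6 (0.87, adjusted p = 4.02e-05) and Mmp17 (0.85, adjusted p = 0.0299) were then called higher. The 25 genes called higher with the usual scaling kept that call.

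**Figure D2:**
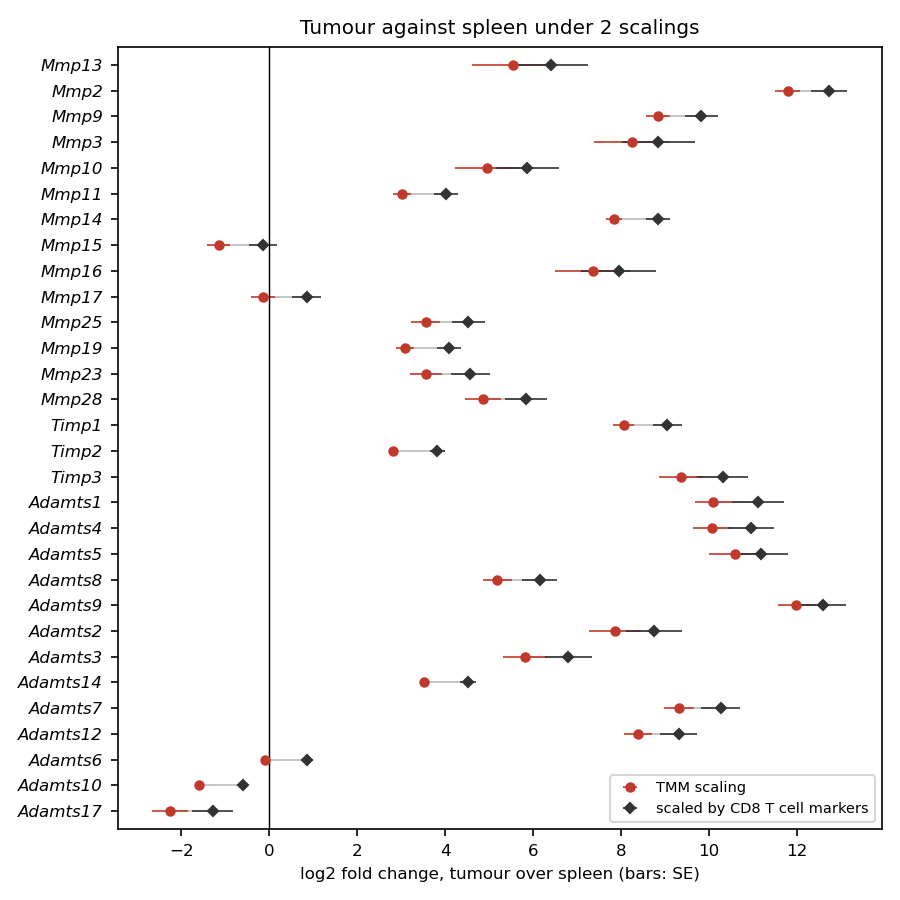
Log2 fold change, tumour over spleen, of the 30 tested genes under the usual TMM scaling (circles) and under scaling by CD8 T cell markers (diamonds), with bars for the SE. Values of genes at or near 0 in spleen are fitted ones that depend on the prior count. Adamts10 and Adamts17 stay below 0 under both, and Adamts6 and Mmp17 cross to 0.87 and 0.85.

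To compare genes with each other, CPM was divided by exon length (GENCODE M21). Per kilobase, the order in tumour was Timp2 at 119, Timp1 at 66.0, Mmp14 at 44.4, Mmp2 at 41.1, Adamts1 at 35.3 and Mmp9 at 19.96 CPM per kb. In spleen it was Adamts10 at 33.4, Timp2 at 16.9 and Adamts6 at 5.11 CPM per kb, and the other genes were below 1.3. Summed over families, MMPs came to 120.5 ± 18.1 CPM per kb in tumour and 2.79 ± 0.257 in spleen libraries, TIMPs to 189 ± 25.1 and 17.1 ± 0.263, and ADAMTS proteases to 83.1 ± 12.3 and 40.0 ± 0.326 (SD, n = 3 each). The ratio of summed proteases to summed TIMPs was 1.07, 1.14 and 1.02 in tumour, against 2.53, 2.44 and 2.52 in spleen libraries. Every tumour library thus had fewer transcripts of both protease families together per TIMP transcript than any spleen library. Most of the spleen protease sum was Adamts10, at 33.4 CPM per kb. MMP transcripts alone per TIMP transcript went the other way and were higher in every tumour library. Summed MMPs came to 120.5 beside 189 for TIMPs in tumour, and to 2.79 beside 17.1 in spleen libraries. These are ratios of mRNA levels, and say nothing of enzyme activity.

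**Figure D3:**
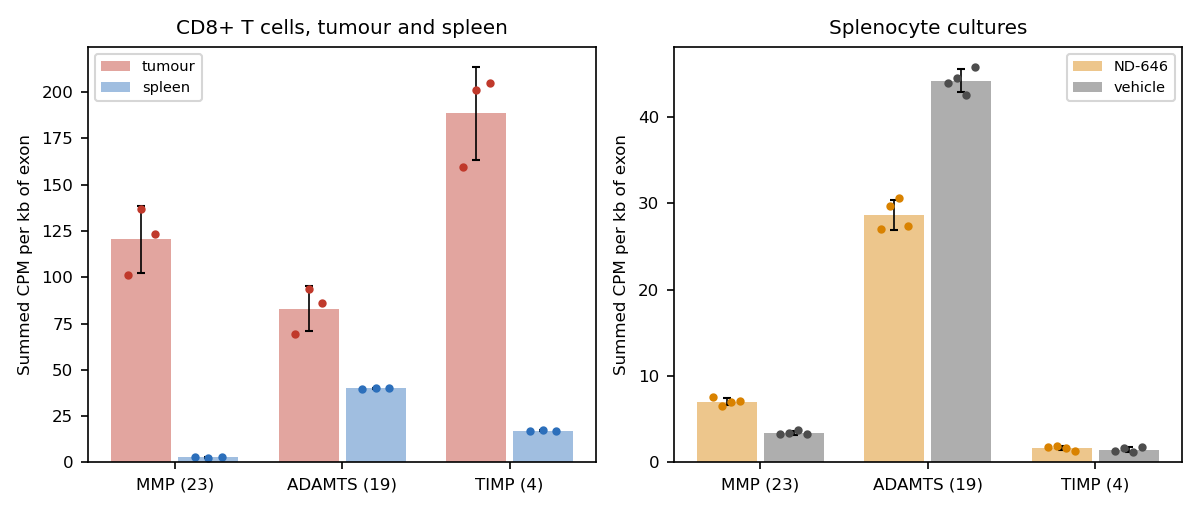
Summed level of the MMP, ADAMTS and TIMP genes in each library, as CPM per kilobase of exon (points), with the mean as a bar and the SD as an error bar. Tumour libraries are above spleen libraries for all 3 families, and ND-646 libraries are above vehicle libraries for MMPs and below them for ADAMTS proteases.

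Genes that act with these enzymes were read from 4 lists, chosen with earlier results of these data known. Across all genes tested, 43.6% were higher in tumour and 40.2% lower. Listed genes near 0 in spleen, such as Htra1, Plau, Mrc2, Adamtsl3 and Tnc, passed the filter through the tumour libraries alone. The counts and medians of the lists therefore carry no support of their own. Of 27 activators and other pericellular proteases, 17 were tested, of which 13 were higher and 4 lower (median log2 fold change 4.16). The highest were Htra1, a secreted serine protease, at 235 ± 38.9 CPM in tumour and 0.0327 ± 0.0284 CPM in spleen libraries, and Plau, urokinase, at 95.8 ± 29.7 CPM in tumour and 0.0321 ± 0.0557 CPM in spleen libraries. The lowest were Dpp4, a T cell surface peptidase, at 32.0 ± 5.52 CPM in tumour and 193 ± 2.81 CPM in spleen libraries, and Klk8, a kallikrein, at 28.4 ± 2.46 CPM in tumour and 96.4 ± 2.15 CPM in spleen libraries. Ctsd, a lysosomal protease and the highest of the list in CPM, averaged 576 ± 55.9 CPM in tumour and 438 ± 15.0 CPM in spleen libraries (log2 fold change 0.40, adjusted p = 0.000608). Of 18 inhibitors and clearance receptors, 11 were tested, of which 10 were higher and 1 lower (median 8.50, or 6.58 with the gene at 0 in spleen at its bound). Higher were Mrc2, a collagen uptake receptor, at 169 ± 26.5 CPM in tumour and 0.0321 ± 0.0557 CPM in spleen libraries, and Lrp1, which clears proteases from the cell surface, at 443 ± 68.4 CPM in tumour and 0.505 ± 0.323 CPM in spleen libraries. The 1 lower gene was Reck, a membrane-anchored inhibitor of MMPs, at 13.4 ± 1.93 CPM in tumour and 22.6 ± 0.725 CPM in spleen libraries (log2 fold change -0.76, adjusted p = 0.000110), and it did not pass under CD8 marker scaling (0.21, adjusted p = 0.176).

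Of 17 ADAM and ADAMTS-like relatives 14 were tested, with 11 higher and 0 lower (median 2.70). Adamtsl3 and Adamtsl5, secreted proteins without a protease domain, averaged 4.44 and 8.94 CPM in tumour and 0 and 0.0161 CPM in spleen libraries. Adam19, a membrane protease and the highest relative in CPM, averaged 229 ± 23 CPM in tumour and 134 ± 4.29 CPM in spleen libraries (log2 fold change 0.77, adjusted p = 5.81e-06). Of 27 matrix substrates 22 were tested, with 21 higher and 1 lower (median 10.55), and 9 of the 27 are also in the fibroblast list. The highest folds were those of Bgn, biglycan, at 942 ± 149 CPM in tumour and 0.225 ± 0.390 CPM in spleen libraries, and Tnc, tenascin-C, at 258 ± 60.6 CPM in tumour and 0.0649 ± 0.0735 CPM in spleen libraries, and the highest in CPM was Col3a1, a fibrillar collagen, at 3083 ± 488 CPM in tumour and 1.47 ± 2.16 CPM in spleen libraries. Comp, the substrate of Adamts7 and Adamts12, was the 1 lower gene, at 0.557 ± 0.154 CPM in tumour and 1.54 ± 0.348 CPM in spleen libraries (log2 fold change -1.46, adjusted p = 0.00204), and was not called under CD8 marker scaling (-0.50, adjusted p = 0.209).

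Markers of other cells moved as well, and their part in the protease values was not tested. The shares over all genes tested were 43.6% higher and 40.2% lower. Of the 26 fibroblast genes 25 were tested, 24 were higher in tumour and 1, Thy1, was lower, with Vim the highest in CPM at 3672 CPM in tumour and 373 CPM in spleen libraries. Of 20 macrophage and monocyte genes 15 were tested, 10 were higher and 0 lower, and their sum was 715 to 806 CPM in tumour and 349.7 to 366 CPM in spleen libraries. C1qa, Mertk, Cd14, Fcgr1 and Ms4a7 were at 0 in spleen, and the highest in CPM in tumour was Spp1, osteopontin, named after its values were seen, at 385 ± 64.4 CPM in tumour and 0.226 ± 0.348 CPM in spleen libraries (log2 fold change 10.67, adjusted p = 1.36e-07). Ly6c2, which T cells also express, was the highest in spleen and over all 6 libraries, at 273 CPM in tumour and 323 CPM in spleen libraries, and was not called. Spp1 and Ly6c2 made up most of the tumour sum, and Ly6c2 most of the spleen sum, so these sums say little of the other macrophage genes. Neutrophils are a known source of Mmp8 and Mmp9. No neutrophil marker of 12 had enough counts, their sum was 0.741 to 0.821 CPM in tumour and 0 to 0.434 CPM in spleen libraries, and Ly6g, Cxcr2 and Ngp were at 0 in all 6 libraries. Endothelial genes were higher in 9 and lower in 1 of 11 tested. The 1 lower was Pecam1, at 27.1 CPM in tumour and 166 CPM in spleen libraries. Cdh5, the highest in tumour CPM of the higher ones, averaged 11.1 CPM in tumour and 0.278 CPM in spleen libraries. It was named after the values were seen. The sum was 116 to 131 CPM in tumour and 215 to 220.4 CPM in spleen libraries. Pecam1 and Eng, which was not called, made up most of both sums, so these say little of the other endothelial genes. Dendritic cell genes were higher in 5 and lower in 1 of 7 (Itgax 31.1 CPM in tumour and 11.4 CPM in spleen libraries; sum 39.6 to 66.4 CPM in tumour and 14.9 to 24.2 CPM in spleen libraries). NK genes were higher in 6 and lower in 1 of 7. The 1 lower was Eomes, at 35.9 CPM in tumour and 103 CPM in spleen libraries. Klre1, the highest in tumour CPM of the higher ones, averaged 23.5 CPM in tumour and 2.86 CPM in spleen libraries. It too was named after the values were seen. The sum was 95.2 to 113 CPM in tumour and 106 to 115 CPM in spleen libraries, and Eomes made up most of the spleen sum. Mast cell and basophil genes were higher in 3 of 3 (Kit 13.3 CPM in tumour and 3.16 CPM in spleen libraries; sum 15.5 to 30.1 CPM in tumour and 2.90 to 3.64 CPM in spleen libraries). B and plasma cell genes were lower in 6 of 6, with Ighm at 57.5 CPM in tumour and 704 CPM in spleen libraries and a sum of 58.4 to 73.5 CPM in tumour and 830.2 to 862 CPM in spleen libraries. CD8 T cell genes were lower in 17 of 17 under the usual scaling.

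The second comparison set cultures with ND-646 against vehicle, and here the proteases changed by much less. Of the 14 genes tested, 6 were higher with ND-646 (Mmp9, Mmp11, Mmp17, Mmp19, Timp2 and Adamts6), 3 were lower (Adamts14, Adamts10 and Mmp14), and 5 did not pass the test. Across all 14251 genes tested, 56.3% were called, 29.8% as higher and 26.5% as lower, and 9 of 14 (64.3%) lies near that background. The groups did not overlap for 7 of the 14 genes, against 51.1% of all genes tested. The median log2 fold change was 0.34 over the 14 genes and 0.01 over all. With a required change of at least 2-fold, 1 gene was called higher (Mmp11) and 1 lower (Adamts14).

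**Figure D4:**
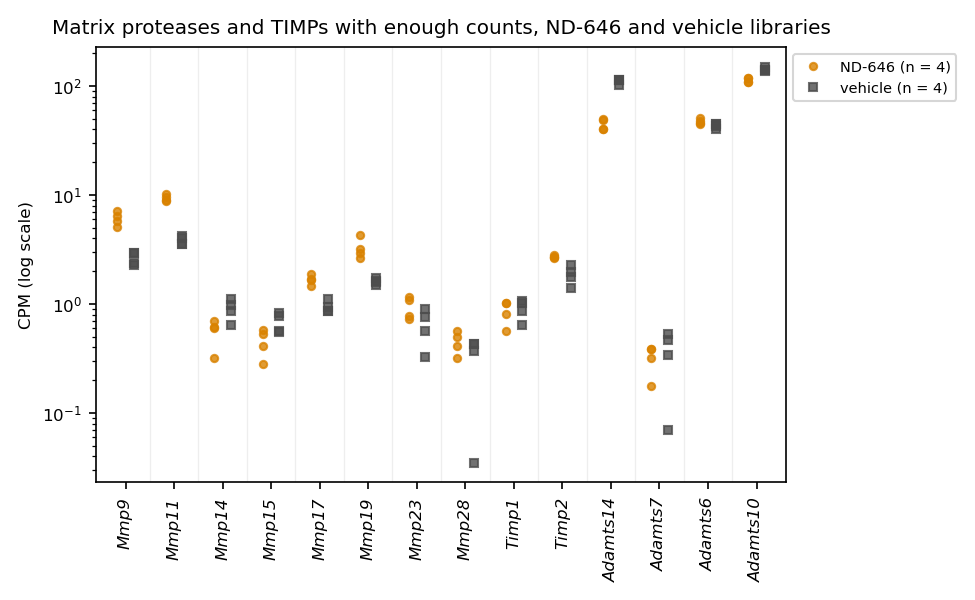
Level of each of the 14 tested genes in the 4 ND-646 libraries (circles) and 4 vehicle libraries (squares), as CPM on a log scale. Adamts14 and Adamts10 are lower in every ND-646 library, and Mmp9, Mmp11, Mmp17, Mmp19 and Timp2 are higher in every one.

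Adamts14, the procollagen N-propeptidase, showed the largest fall among the tested proteases. It stood at 40.4, 48.3, 50.2 and 40.5 CPM in the ND-646 libraries, against 114, 114, 102 and 113 CPM in the vehicle libraries. Every ND-646 library was below every vehicle library, and ND-646 was 2.47-fold lower (log2 fold change -1.30 ± 0.07 SE, adjusted p = 1.63e-08). Adamts10 stood at 109, 119.7, 117 and 109.9 CPM in the ND-646 libraries, against 137, 140.4, 141 and 150.2 CPM in the vehicle libraries (log2 fold change -0.32 ± 0.04 SE, adjusted p = 3.71e-06), a smaller fall without overlap. For both genes ND-646 libraries 2 and 3 were higher than 1 and 4, and these pairs were also the nearest over all genes, with a chi-square per degree of freedom of 3.86 between 2 and 3, 5.39 between 1 and 4, and 7.90 to 12.2 otherwise. Their part in these values was not tested. Adamts6 stood at 46.2, 44.98, 50.7 and 47.6 CPM in the ND-646 libraries, against 40.4, 42.9, 45.1 and 44.6 CPM in the vehicle libraries (log2 fold change 0.13 ± 0.05 SE, adjusted p = 0.0297). The groups of Adamts6 overlapped, and it was not called with DESeq2 size factors (adjusted p = 0.0515), in DESeq2's Wald test (0.0781), or without ND-646 replicate 3 (0.129), ND-646 replicate 4 (0.0708), vehicle replicate 1 (0.117) or vehicle replicate 2 (0.0613).

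All 4 MMPs that were higher with ND-646 had separate ranges. Mmp11 stood at 8.88, 9.63, 10.2 and 9.09 CPM in the ND-646 libraries, against 3.56, 4.23, 4.04 and 3.58 CPM in the vehicle libraries (log2 fold change 1.29 ± 0.09 SE, adjusted p = 1.92e-09). Mmp9 stood at 7.10, 5.09, 5.79 and 6.44 CPM in the ND-646 libraries, against 2.95, 2.27, 2.92 and 2.39 CPM in the vehicle libraries (log2 fold change 1.21 ± 0.13 SE, adjusted p = 4.23e-07). Mmp19 stood at 4.30, 2.63, 2.96 and 3.18 CPM in the ND-646 libraries, against 1.64, 1.75, 1.504 and 1.58 CPM in the vehicle libraries (log2 fold change 1.01 ± 0.17 SE, adjusted p = 6.26e-05). The first of these, stromelysin-3, shares 5.58% of its exon bases with Chchd10 on the opposite strand, and Chchd10, a mitochondrial protein gene, averaged 195 CPM in ND-646 and 61.9 CPM in vehicle libraries (log2 fold change 1.66, adjusted p = 1.71e-08). Mmp19 shares 22.3% with Tmem198b, which averaged 14.2 CPM in ND-646 and 9.34 CPM in vehicle libraries (0.61, adjusted p = 1.19e-05). The use of strand in counting is not given, and the part of these neighbours in both values was not tested. Between tumour and spleen, Chchd10 averaged 8.85 and 8.62 CPM and Tmem198b 11.5 and 9.90 CPM, and neither was called (adjusted p = 0.805 and 0.218). Mmp17 stood at 1.69, 1.46, 1.91 and 1.66 CPM in the ND-646 libraries, against 0.860, 0.945, 0.860 and 1.11 CPM in the vehicle libraries (log2 fold change 0.83 ± 0.19 SE, adjusted p = 0.00118).

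Mmp14, the leading MMP of tumour libraries, was below 1.2 CPM in every culture and was lower with ND-646. It stood at 0.700, 0.615, 0.318 and 0.601 CPM in the ND-646 libraries, against 0.860, 1.12, 0.989 and 0.640 CPM in the vehicle libraries (log2 fold change -0.69 ± 0.27 SE, adjusted p = 0.0402). The ranges of Mmp14 overlapped, and besides the 2-fold requirement the call was lost in 9 alternatives, which were DESeq2's Wald test (adjusted p = 0.0695), no low-count filter (0.0568), the replicate number as a block (0.0522), and without ND-646 replicate 2 (0.0504), 3 (0.123) or 4 (0.0552), or vehicle replicate 1 (0.0638), 2 (0.143) or 3 (0.0878). Timp2 stood at 2.70, 2.84, 2.72 and 2.62 CPM in the ND-646 libraries, against 1.39, 1.96, 1.76 and 2.26 CPM in the vehicle libraries (log2 fold change 0.56 ± 0.16 SE, adjusted p = 0.00606). All ND-646 values of Timp2 were above all vehicle values, and ND-646 values were the less spread. Timp1 averaged 0.855 ± 0.217 CPM in ND-646 and 0.896 ± 0.189 CPM in vehicle libraries and did not pass the test (log2 fold change -0.06, adjusted p = 0.851). The other 4 that did not pass were Mmp15 (-0.58, adjusted p = 0.0970), Mmp23 (0.56, 0.108), Mmp28 (0.56, 0.284) and Adamts7 (-0.14, 0.818), all below 1.2 CPM in every library.

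Per kilobase, summed MMPs came to 7.04 ± 0.410 CPM per kb in ND-646 and 3.397 ± 0.219 in vehicle libraries, and summed ADAMTS proteases to 28.6 ± 1.74 and 44.2 ± 1.34 (SD, n = 4 each). TIMPs came to 1.66 ± 0.264 and 1.49 ± 0.280, less than the spread between replicates. The ratio of proteases to TIMPs was 18.7, 19.2, 23.3 and 26.3 in ND-646, against 35.6, 28.8, 38.9 and 27.5 in vehicle libraries. The ND-646 values were all below the vehicle values, and all 8 were above the ratios in tumour and spleen libraries, which were scaled separately. ADAMTS proteases made up most of the protease sum in both kinds of culture. MMP transcripts alone per TIMP transcript went the other way and were higher in every ND-646 library. Summed MMPs came to 7.04 beside 1.66 for TIMPs in ND-646, and to 3.397 beside 1.49 in vehicle libraries. Vehicle cultures were led by Adamts14 at 21.3 CPM per kb and Adamts10 at 17.2, and ND-646 cultures by Adamts10 at 13.8 and Adamts14 at 8.63.

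Over all genes tested in the cultures, 29.8% were higher and 26.5% lower with ND-646. Among the related lists, 13 of 27 activators and pericellular proteases were tested in the cultures, 2 higher and 8 lower with ND-646 (median log2 fold change -0.53). The 2 higher were Ctsl, a lysosomal cysteine protease, at 14.7 ± 1.78 CPM in ND-646 and 8.41 ± 0.764 CPM in vehicle libraries, and St14, matriptase, at 53.0 ± 2.93 CPM in ND-646 and 42.5 ± 1.68 CPM in vehicle libraries. The lowest folds were those of Ctsg, a granule protease, at 0.321 ± 0.108 CPM in ND-646 and 3.02 ± 0.597 CPM in vehicle libraries, and Bmp1, the procollagen C-proteinase, at 0.707 ± 0.0754 CPM in ND-646 and 3.28 ± 0.446 CPM in vehicle libraries. Ctsd, the highest in CPM, averaged 413 ± 7.85 CPM in ND-646 and 738 ± 22.7 CPM in vehicle libraries (log2 fold change -0.84, adjusted p = 2.15e-12). Of 18 inhibitors and receptors 8 were tested, 2 higher and 4 lower (median -0.41). Spock2, a proteoglycan of the testican group, averaged 28.7 ± 0.459 CPM in ND-646 and 8.78 ± 0.264 CPM in vehicle libraries (log2 fold change 1.71, adjusted p = 8.43e-14), and Plaur, the urokinase receptor, 1.26 CPM in ND-646 and 0.574 CPM in vehicle libraries. Lower were Lrp1 at 3.20 ± 0.760 CPM in ND-646 and 13.0 ± 1.16 CPM in vehicle libraries and Serpinf1 at 0.273 ± 0.0922 CPM in ND-646 and 1.27 ± 0.346 CPM in vehicle libraries. Serpine2, the highest in CPM, averaged 339 ± 27.1 CPM in ND-646 and 362 ± 2.68 CPM in vehicle libraries and was not called (adjusted p = 0.0873).

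Of 17 ADAM and ADAMTS-like relatives 9 were tested, 1 higher and 4 lower (median -0.16). Adam15 averaged 32.7 ± 1.27 CPM in ND-646 and 23.7 ± 2.15 CPM in vehicle libraries, and Adam8, a leukocyte membrane protease and the highest relative in CPM, 305 ± 29.2 CPM in ND-646 and 502 ± 22.6 CPM in vehicle libraries (log2 fold change -0.72, adjusted p = 2.00e-07). Adamtsl5 averaged 3.63 ± 0.438 CPM in ND-646 and 6.61 ± 0.652 CPM in vehicle libraries. Of 27 matrix substrates 6 were tested, 0 higher and 2 lower (median 0.01). Comp averaged 0.437 ± 0.197 CPM in ND-646 and 1.26 ± 0.315 CPM in vehicle libraries (log2 fold change -1.53, adjusted p = 0.000242), and Lamc1, a laminin chain and the highest in CPM, 86.6 ± 5.34 CPM in ND-646 and 82.0 ± 3.74 CPM in vehicle libraries and was not called (adjusted p = 0.159).

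Several cell markers moved in the cultures too, and their part in the protease values was not tested. The shares over all genes tested were 29.8% higher and 26.5% lower. Macrophage and monocyte genes were higher in 1 and lower in 7 of 9 tested, with Spp1 at 54.1 CPM in ND-646 and 229 CPM in vehicle libraries and a sum of 88.0 to 98.4 CPM in ND-646 and 325 to 340.5 CPM in vehicle libraries, and C1qc and Chil3 were at 0 in all. Spp1 made up most of both sums. Mast cell and basophil genes were lower in 3 of 3 (Kit 7.26 CPM in ND-646 and 39.1 CPM in vehicle libraries; sum 6.58 to 10.4 CPM in ND-646 and 38.4 to 45.1 CPM in vehicle libraries), with Mcpt4 at 0. NK genes were lower in 4 of 5 (Eomes 8.96 CPM in ND-646 and 23.8 CPM in vehicle libraries; sum 15.3 to 16.9 CPM in ND-646 and 46.6 to 51.5 CPM in vehicle libraries). Neutrophil genes were lower in 2 of 2, at a sum of 0.322 to 0.668 CPM in ND-646 and 1.39 to 1.505 CPM in vehicle libraries, with Ltf the highest in CPM at 0.0564 CPM in ND-646 and 0.811 CPM in vehicle libraries, and S100a8, S100a9, Csf3r, Retnlg and Elane were at 0 in all 8 libraries. Fibroblast genes were higher in 1 and lower in 5 of 8 (Vim 1450 CPM in ND-646 and 2173 CPM in vehicle libraries; sum 2537 to 2684 CPM in ND-646 and 3791 to 4107 CPM in vehicle libraries), with Col5a1, Lox, Loxl1 and Bgn at 0, and without Vim, S100a4 and Thy1 the sum was 11.8 to 13.6 CPM in ND-646 and 12.9 to 14.0 CPM in vehicle libraries. Endothelial genes were lower in 3 of 3 (Pecam1 26.7 CPM in ND-646 and 37.5 CPM in vehicle libraries; sum 46.7 to 53.6 CPM in ND-646 and 64.9 to 71.5 CPM in vehicle libraries), with Cdh5, Tie1, Emcn and Cldn5 at 0. Dendritic cell genes were higher in 1 and lower in 2 of 5 (Batf3 58.9 CPM in ND-646 and 58.5 CPM in vehicle libraries; sum 56.5 to 70.0 CPM in ND-646 and 66.7 to 74.0 CPM in vehicle libraries), with Siglech at 0. B and plasma cell genes were higher in 1 and lower in 5 of 6. The 1 higher was Ighm, at 162 CPM in ND-646 and 115 CPM in vehicle libraries. The sum was 148 to 174 CPM in ND-646 and 116 to 132 CPM in vehicle libraries. Ighm made up most of both sums, so these say little of the 5 lower genes. CD8 T cell genes were higher in 6 and lower in 8 of 17, with Thy1 at 1142 CPM in ND-646 and 1568 CPM in vehicle libraries and a sum of 5627 to 5755 CPM in ND-646 and 6065 to 6406 CPM in vehicle libraries.

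Across all 4 groups, which come from 2 tables scaled separately and are set side by side without a test, a few genes were well measured throughout. Adamts6 averaged 36.9 CPM in tumour, 39.9 in spleen, 47.3 in ND-646 and 43.2 in vehicle libraries, a narrow range. Adamts10 averaged 91.2 CPM in tumour, 276 in spleen, 114 in ND-646 and 142 in vehicle libraries. Adamts14 averaged 77.0 CPM in tumour, 6.68 in spleen, 44.9 in ND-646 and 111 in vehicle libraries. Adamts10 was thus highest in fresh spleen T cells, and Adamts14 was lowest there and highest in the vehicle cultures. Timp2 averaged 465 CPM in tumour and 65.9 in spleen libraries, against 2.72 in ND-646 and 1.84 in vehicle cultures. Mmp11 averaged 14.1 CPM in tumour, 1.74 in spleen, 9.45 in ND-646 and 3.85 in vehicle libraries, and it was the MMP with the highest level per kilobase in both kinds of culture.

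**Figure D5:**
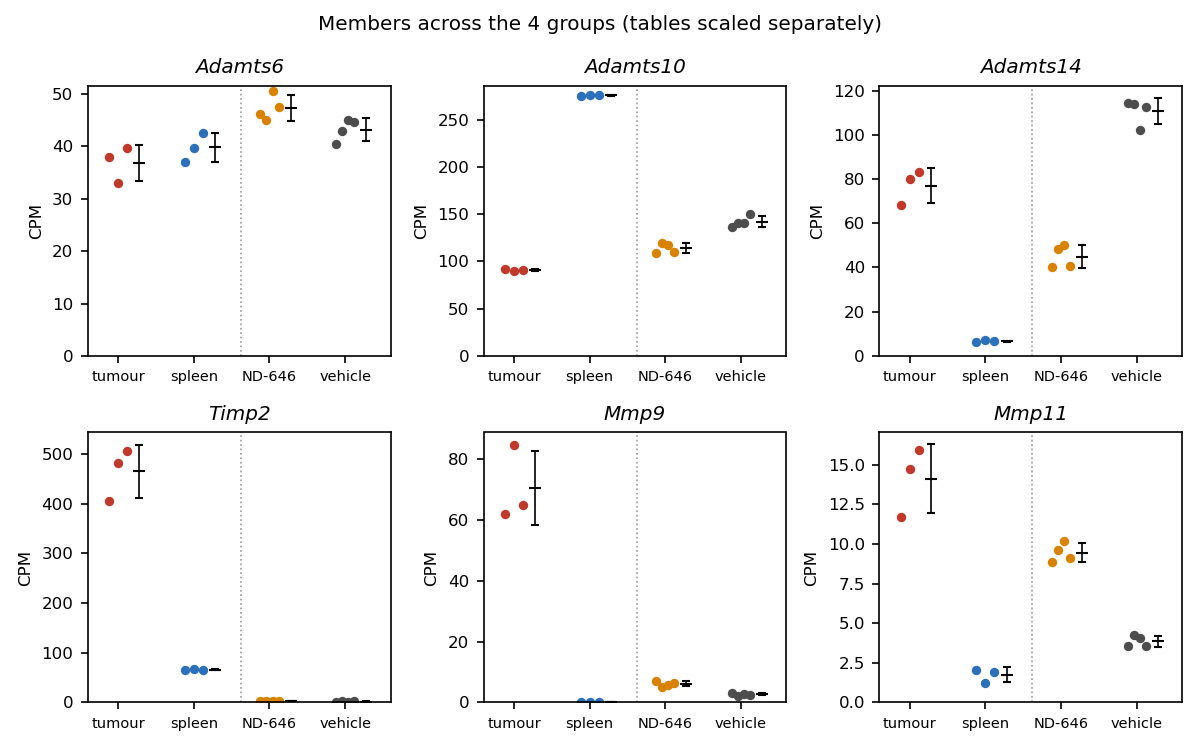
Level of 6 genes tested in both tables, in each library of the tumour, spleen, ND-646 and vehicle groups (points), as CPM on a linear axis, with the mean and SD beside them. The tables were scaled separately. Group means of Adamts6 lie between 36.9 and 47.3 CPM, while those of Timp2 are 465 CPM in tumour and 1.84 CPM in vehicle cultures.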

How the data were processed

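The authors deposited estimated counts per gene symbol, in a table for each experiment; the values are not normalized, since totals differ between libraries, and 9.16% and 9.15% of values are not whole (tolerance 1e-06). STAR, Salmon and DESeq2 appear in the submitters' processing notes with neither role nor version. Strand use in counting, build and annotation: not given in the sources used here. Library preparation selected poly(A) RNA and kept strand, per the labels' protocols. Estimated counts share reads between similar genes by a model.

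Counts were rounded and fitted on all genes of each table with edgeR 4.0.16 in R 4.3.3 (TMM scaling, filterByExpr, robust quasi-likelihood test, Benjamini-Hochberg adjustment over all genes tested, threshold 0.05). SEs follow from the F statistic. CPM uses TMM-scaled libraries. A fold against a group at 0 used 3 counts over that group, and a spleen total of 1 to 3 counts was given as a ratio with an exact 95% interval, for counting error only. Every column of values was matched to a sample by its title. Replicates differed by more than sampling noise, with a chi-square per degree of freedom of 2.41 or more, and none was counted as a duplicate. Alternatives used DESeq2 1.42.0, limma 3.58.1 (voom), other filters, a block and CD8 marker scaling. The fit was tested on simulated data. Exon lengths and overlaps come from GENCODE M21, which held 96.4% of the symbols and all 46 of the genes, and promoters from RefSeq (GRCm38.p6).

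The members and all gene lists were chosen with earlier results of these data known. Members with a mean of at least 1 CPM in either group were given by library. From each related list the 2 highest and 2 lowest called genes at that level and the highest in CPM were named, and from each marker list its highest gene in CPM and those at 0 in all libraries. 1 item that this rule selects was left out of the text.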

Additional observations from a re-analysis of the deposited data

Results flagged for a closer look

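In the cultures, 28 sets of 4 replicates were examined for a library far from the others (14 genes in 2 groups), and 2 were found, where chance alone gives about 1 set in 20. Adamts14 stood at 102 CPM in vehicle replicate 3 and between 112.6 and 114 CPM in the other vehicle libraries, and without that replicate it was still called lower with ND-646. Mmp28 stood at 0.035 CPM in vehicle replicate 2, which is 1 count, and at 0.369 to 0.430 CPM in the other vehicle libraries, and the gene did not pass the test. Groups of 3 were not examined in this way.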

How the results depend on the processing

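Between tumour and spleen, the counts of 25 higher and 3 lower proteases and TIMPs were the same with DESeq2 size factors, DESeq2's Wald test, limma-voom and without each library in turn, and were 26 and 3 without a low-count filter, which added Mmp12 (adjusted p = 0.0116), and 22 and 2 with a filter of 1 CPM. Over all genes, leaving out 1 library gave 6595 to 6851 higher and 5666 to 6077 lower. Requiring a 2-fold change gave 25 and 2 of the 30 genes, and 3769 higher and 2227 lower among all genes. Scaling by CD8 T cell markers gave 27 and 2, and 10460 higher and 1773 lower among all genes, and turned the direction of Adamts6 (log2 fold change 0.87) and Mmp17 (0.85); it raises each log2 fold change by construction. Between ND-646 and vehicle, 6 higher and 3 lower became 1 and 1 when a 2-fold change was required, with 166 higher and 275 lower among all genes. The other settings gave 5 to 6 higher and 2 to 3 lower. Leaving out 1 library gave 5 to 6 and 2 to 3, and 3856 to 4069 higher and 3514 to 3866 lower among all genes; Adamts6 and Mmp14 were the genes whose calls were lost there.

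With the replicate number as a block, 25 were higher and 3 lower in tumour (6504 and 5988 of all genes), and 6 were higher and 2 lower with ND-646 (4163 and 3701 of all genes). Same-numbered libraries did not deviate together (correlations of -0.04 to -0.03 and of -0.15 to 0.04). Samples of the same animal need not deviate together, so whether the numbers pair samples is not known. Depth limits the untested genes, which had at most 8 counts in a tumour or spleen library and at most 12 in a culture.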
